A study of Xenopus laevis with 20 samples.

Results

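Transcripts of 7 homeobox genes of the eye field and forebrain, six3, six6, rax, otx1, otx2, crx and lhx2, were followed across 4 injections in animal caps of the frog Xenopus laevis. The members were all probe sets whose annotated symbol, without the .L or .S ending, was one of those 7. They came to 18 of 32539 probe sets on the array and stood for 12 gene copies. Xenopus laevis is an allotetraploid, and .L and .S name the copies of a gene on its long and short chromosomes. An animal cap is the prospective ectoderm of the blastula. Embryos received mRNA at the 2-cell stage, and single caps were cut at stage 9 and kept in dexamethasone for 8 h. One group received Pax3GR, one Zic1GR, one both (here called the combination) and one GR only, and each of the 4 groups held 5 caps on 5 arrays. GR is the glucocorticoid receptor, whose hormone-binding part keeps a fused protein inactive until dexamethasone is given. The GR caps thus share injection and hormone with the other groups. The design text gives GR as the negative control, and caps without dexamethasone were not analysed here.

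The eye field is the patch of the anterior neural plate from which both retinas arise. It is defined by overlapping homeobox regulators, among them rax, six3, six6, lhx2 and pax6. The gene otx2 marks the future forebrain and midbrain more broadly, and its protein acts upstream of the eye field genes in frog embryos. Its relatives otx1 and crx encode bicoid-class homeodomain proteins, and crx is best known for photoreceptors, while frog crx, long called otx5, is also expressed in anterior ectoderm. Pax3 and Zic1 are transcription factors of the neural plate border, the strip from which neural crest and placodes arise. The comparisons asked which factor turns on each gene and what the combination does to it.

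Values are log2 probe set intensities, and log2 4 was taken as background. A probe set was tested where at least 5 of the 20 arrays reached that level, which kept 20519 probe sets and 11 of the 18 members, from 9 of the 12 gene copies. Groups were compared with limma over all probe sets tested. The words rose, fell, higher and lower are used of differences with a Benjamini-Hochberg adjusted p below 0.05, and other values are given without a call. A fold against a group with no array at background is a lower bound, computed with its arrays set to 4. The member six6.L reached log2 4 only on the 5 Pax3GR arrays, so the filter itself required it to differ. The copy six6.S reached it on 7 arrays, the 5 of Pax3GR and 2 of the combination. It too passed the filter only through Pax3GR. Both six3.S probe sets reached log2 4 on the 5 Pax3GR arrays and otherwise only on 4 and 3 Zic1GR arrays. They would likewise not have passed without Pax3GR. The .L and .S names are those of the array's annotation, and whether a probe set tells the copies apart was not tested. Probe sets differ in their response to a transcript, so levels are compared between groups and not between genes.

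Between 18949 and 19239 probe sets reached log2 4 on each array. As a check of the labels, 1 of the 5 pax3.L probe sets and both pax3.S ones lay at most at 2.83 in GR and at least at 12.56 in the groups that received Pax3GR. They also lay at 7.60 to 12.12 in Zic1GR. Other pax3.L probe sets were already bright in GR, at 13.9 to 14.15, 13.42 to 13.7 and 9.26 to 9.81. In Pax3GR these lay at 13.97 to 14.26, 13.62 to 13.8 and 8.94 to 10.03. Their ranges overlapped GR, so they do not mark the Pax3GR caps. The remaining pax3.L probe set lay at 2.25 to 2.3 in GR, 7.09 to 8.36 in Pax3GR, 6.98 to 8.72 in the combination and 2.37 to 4.66 in Zic1GR. The zic1.S probe sets lay at 10.22 to 11.74 and 11.84 to 13.06 in Zic1GR, above GR at 4.44 to 5.97 and 6.33 to 8.35, and below Pax3GR at 12.56 to 13.43 and 13.81 to 14.1. The zic1.S signal was thus higher in every Pax3GR cap than in any Zic1GR cap, and it does not by itself identify the Zic1GR caps. The probe sets were not shown to tell injected from endogenous message. The labels name the caps as biological replicates without saying which shared a clutch, so p-values measure the spread between these caps. Epidermal markers, which define the ectoderm label, averaged 12.38 to 12.68 per GR array over 17 gene copies, 8.74 to 11.08 per Pax3GR array, 10.43 to 11.52 per Zic1GR array and 10.22 to 11.88 per combination array. Epidermal means were thus lower than GR on every Pax3GR, Zic1GR and combination array, and their part in the member values was not tested. The mean over 11 pan-neural copies was 6.88 to 7.52 per array with GR, 9.67 to 10.54 with Pax3GR, 9.60 to 10.33 with Zic1GR and 7.68 to 9.56 with the combination. For head mesendoderm, tissue that also expresses otx2, the mean over 13 copies was 3.02 to 3.30 with GR, 2.93 to 4.11 with Pax3GR, 3.97 to 4.53 with Zic1GR and 3.39 to 4.28 with both messages. Of these copies shisa2.L, lhx1.L, frzb.S and both foxa4 copies lay below log2 4 on all 20 arrays. By contrast gsc.L reached it in Zic1GR alone, foxa2.L in Zic1GR and the combination, and gsc.S in every group but GR. The copies cer1.S and frzb.L reached it in Pax3GR and the combination. The part of this tissue in the otx2 values was not tested. In such bulk caps, fewer cells of a type and less RNA per cell cannot be told apart.

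**Figure D1:**
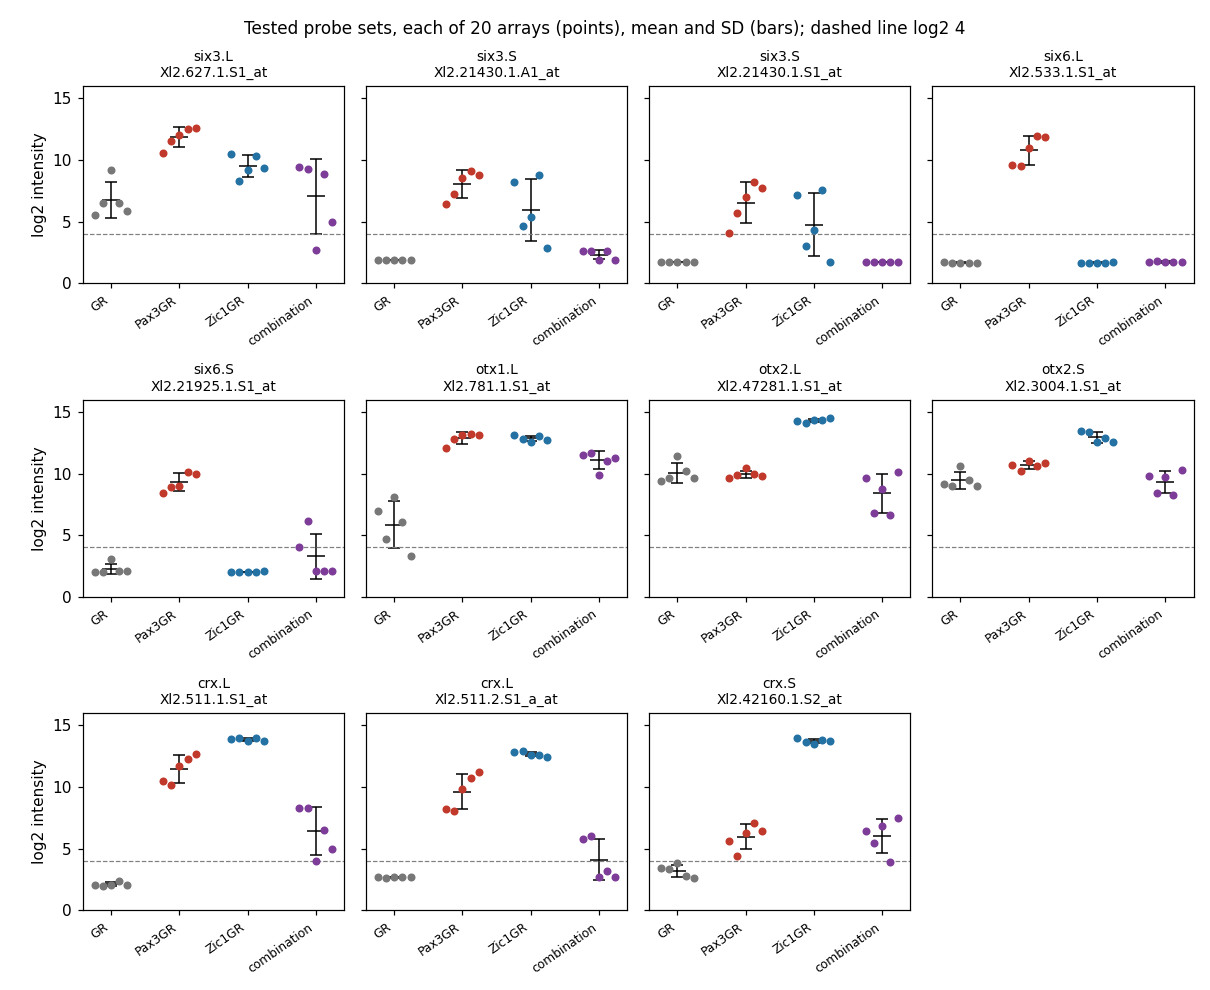
Log2 intensity of the 11 tested probe sets in GR, Pax3GR, Zic1GR and the combination, 1 panel for each, with points for arrays, bars for mean ± SD (n = 5) and a dashed line at log2 4. Both six6 copies stand above the line in all 5 Pax3GR arrays and in none of Zic1GR, while otx2 and crx are highest in Zic1GR and lower in the combination.

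The eye field gene six6, whose protein promotes growth of the retinal field, was above background in every Pax3GR cap and in no Zic1GR cap. On the 5 Pax3GR arrays six6.L (Xl2.533.1.S1_at) lay at 9.61, 9.49, 10.98, 11.97 and 11.86. On the other 15 arrays it lay between 1.64 and 1.84, so no other group came near background. Its Pax3GR mean of 10.78 ± 1.19 (SD, n = 5) was at least 110-fold above each other group, given as a description with no test since the filter fixed that it differs. The other copy, six6.S (Xl2.21925.1.S1_at), lay at 8.45, 8.88, 8.98, 10.12 and 9.97 in Pax3GR. It was between 1.98 and 2.06 in Zic1GR and between 2.03 and 3.03 in GR. In the combination six6.S lay at 4.01, 6.19, 2.07, 2.08 and 2.06, so 2 of 5 combination caps reached background or more. Its Pax3GR mean was at least 38.8-fold above GR. It was at least 28.6-fold above the combination, with arrays under log2 4 set to 4. Both are given as a description with no test, since six6.S passed the filter only through Pax3GR. The combination was not called against GR (log2 difference 1.03, SE 0.61, adjusted p = 0.18). Zic1GR minus GR was -0.23 for six6.S (SE 0.61, adjusted p = 0.776), with both groups below background.

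The related gene six3, which marks the anterior tip of the neural plate and in vertebrates represses Wnt genes there, rose with either factor alone. On its six3.L probe set (Xl2.627.1.S1_at), Pax3GR caps lay at 10.61, 11.55, 12, 12.54 and 12.63. Zic1GR caps lay at 10.50, 8.33, 9.18, 10.36 and 9.35, and GR caps at 5.55, 6.49, 9.23, 6.55 and 5.90. Pax3GR thus stood clear of GR, while Zic1GR overlapped GR through the array of GR replicate 3. The rise was 5.12 with Pax3GR (SE 1.08, adjusted p = 0.000752) and 2.80 with Zic1GR (SE 1.08, adjusted p = 0.0385). The Zic1GR call was weak, since leaving out any 1 of 8 single arrays took its adjusted p to between 0.051 and 0.0849. In the combination six3.L lay at 9.43, 9.31, 2.70, 8.87 and 4.99, the widest spread of any tested member in any group (SD 3.05). It was lower there than in Pax3GR by 4.81 (adjusted p = 0.00834, or 0.0758 with those 2 groups fitted alone) and was not called against Zic1GR (adjusted p = 0.15) or GR (adjusted p = 0.83). The order of means was Pax3GR, Zic1GR, combination and GR, and no neighbours in that order differed beyond the threshold. Pax3GR minus Zic1GR was 2.32 (adjusted p = 0.108). It was called without combination replicate 3 (0.0366), with those 2 groups fitted alone (0.00775) and with array weights (0.00651).

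The copy six3.S was below background in all GR caps, with both of its probe sets between 1.71 and 1.90. On Xl2.21430.1.A1_at Pax3GR caps lay at 6.47, 7.25, 8.56, 9.08 and 8.81, and Zic1GR caps at 8.21, 4.64, 5.37, 8.78 and 2.83. Every Pax3GR cap and 4 of 5 Zic1GR caps thus expressed it above background. In the combination it lay between 1.90 and 2.63, below background on all arrays. Its Pax3GR mean was at least 16.4-fold above GR and above the combination. Both are given as a description with no test, since six3.S passed the filter only through Pax3GR. It rose with Zic1GR by at least 3.90-fold (adjusted p = 0.000655). The combination was lower than Zic1GR by at least 3.90-fold (adjusted p = 0.00619). That adjusted p was 0.058 with all values under log2 4 set to 4 and 0.0569 with the 2 groups fitted alone. The second probe set of six3.S (Xl2.21430.1.S1_at) went the same way at lower values, 4.07 to 8.22 in Pax3GR and 1.76 to 7.56 in Zic1GR. There it was above background on 3 of 5 Zic1GR arrays, and its rise with Zic1GR (adjusted p = 0.0108) was not called with low values set to 4 (adjusted p = 0.122). Its fall from Zic1GR to the combination (adjusted p = 0.0362) was lost without any 1 of Zic1GR replicates 1, 3 and 4 or of the combination arrays, at 0.0545 to 0.105. That call was also lost with values under log2 4 set to 4 (0.253), with the 2 groups fitted alone (0.109) and with no filter (0.0584). Pax3GR minus Zic1GR was 2.07 (SE 0.83, adjusted p = 0.064) on the first probe set and 1.77 (SE 0.92, adjusted p = 0.149) on the second. Without Zic1GR replicate 4 those adjusted p were 0.00997 and 0.0395, and without Pax3GR replicate 1 they were 0.0349 and 0.0472. Without Zic1GR replicate 1 the first was 0.0209. As six3.S passed the filter only through Pax3GR, these adjusted p give no test of Pax3GR against Zic1GR.

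The gene otx1, an otx2 relative of the forebrain and midbrain, was raised by each factor to nearly one level and stayed up in the combination. Its 1 probe set, otx1.L (Xl2.781.1.S1_at), lay at 6.99, 4.68, 8.13, 6.06 and 3.27 in GR. In Pax3GR it lay at 12.09, 12.77, 13.13, 13.23 and 13.16, and in Zic1GR at 13.13, 12.84, 12.54, 13.02 and 12.76. In the combination it lay at 11.52, 11.69, 9.88, 11.04 and 11.30. Every Pax3GR, Zic1GR and combination cap was above every GR cap, and every combination cap was below every cap with a single factor. The rises were 7.05 with Pax3GR, 7.03 with Zic1GR and 5.26 with the combination (SE 0.64, adjusted p = 8.3e-08, 1.34e-07 and 4.04e-06). The combination lay 1.79 below Pax3GR (adjusted p = 0.082) and 1.77 below Zic1GR (adjusted p = 0.0767), which was not called. Those adjusted p were 0.0351 and 0.0304 without GR replicate 3, and 0.0271 and 0.022 without GR replicate 5. With the 2 groups fitted alone they were 0.028 and 0.00708. Pax3GR minus Zic1GR was 0.02 (SE 0.64, adjusted p = 0.984).

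The gene otx2, a regulator of head and anterior neural identity, was present in every GR cap and rose with Zic1GR. For otx2.L (Xl2.47281.1.S1_at) GR caps lay at 9.38, 9.68, 11.43, 10.17 and 9.61. Zic1GR caps lay at 14.23, 14.13, 14.34, 14.33 and 14.52, and Pax3GR caps at 9.64, 9.85, 10.44, 9.94 and 9.79. Combination caps lay at 9.63, 6.79, 8.72, 6.65 and 10.14, from far below the GR range to within it. The rise with Zic1GR was 19.1-fold (adjusted p = 9.56e-06), and Pax3GR minus GR was -0.12 (SE 0.56, adjusted p = 0.875). From Zic1GR to the combination otx2.L fell by 5.92 on the log2 scale (SE 0.56, adjusted p = 4.73e-07). The combination was also lower than GR, by 1.67 (adjusted p = 0.0209). That last call was lost without GR replicate 3, combination replicate 2 or combination replicate 4 (log2 differences -1.32, -1.27 and -1.23, adjusted p = 0.0669, 0.0659 and 0.0679), and with those 2 groups fitted alone (0.0928). It was also lost without the least alike array of each group, where the log2 difference was -0.888 (adjusted p = 0.186). Against Pax3GR the combination was 1.54 lower without a call (adjusted p = 0.0858, or 0.0447 and 0.0261 without combination replicate 1 or 5). The cement gland, an anterior ectodermal organ that also expresses otx2, was read by 9 marker copies, which averaged 10 to 10.3 per GR array, 7.76 to 9.16 per Pax3GR array, 10.6 to 11.3 per Zic1GR array and 7.17 to 9.12 per combination array. Its gene pitx1.L was above background in Zic1GR alone. The part of cement gland in the otx2 values was not tested.

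The copy otx2.S (Xl2.3004.1.S1_at) followed otx2.L in Zic1GR and differed from it in Pax3GR. GR caps lay at 9.14, 9.01, 10.62, 9.51 and 8.96, and Pax3GR caps at 10.66, 10.18, 11.05, 10.63 and 10.86. Zic1GR caps lay at 13.49, 13.34, 12.55, 12.85 and 12.56, and combination caps at 9.78, 8.41, 9.74, 8.30 and 10.25. Pax3GR overlapped GR only at GR replicate 3, and the combination spread around GR on both sides. It rose by 1.23 with Pax3GR (SE 0.38, adjusted p = 0.0116) and by 3.51 with Zic1GR (adjusted p = 1.17e-06). The combination was lower than Zic1GR by 3.66 (adjusted p = 1.65e-06) and was not called against GR (adjusted p = 0.772). It was lower than Pax3GR by 1.38 (adjusted p = 0.0264), a call lost without any 1 of Pax3GR replicates 3, 4 and 5 and combination replicates 2 and 4, at 0.0554 to 0.0664, and with the 2 groups fitted alone (0.0882). Whether the 2 copies differ from each other in their answer to Pax3GR was not tested.

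The gene crx, a bicoid-class factor of photoreceptors and anterior neural tissue, was off in GR and rose most with Zic1GR. On crx.L (Xl2.511.1.S1_at) GR caps lay between 2.01 and 2.38, and Zic1GR caps at 13.92, 13.98, 13.70, 13.97 and 13.70. Pax3GR caps lay at 10.48, 10.20, 11.68, 12.31 and 12.70, and combination caps at 8.33, 8.28, 4.0, 6.48 and 5.0. The 4 groups did not overlap. The level in Pax3GR was at least 178-fold above GR (adjusted p = 4.47e-09), against a bound of at least 924-fold for Zic1GR (adjusted p = 3.06e-10). Zic1GR was 5.19-fold above Pax3GR (adjusted p = 0.0111, or 0.0516 without the least alike array of each group). The combination was 33.3-fold below Pax3GR and 173-fold below Zic1GR (adjusted p = 9.75e-05 and 3.13e-07), and still at least 5.35-fold above GR (adjusted p = 6.74e-05). The second crx.L probe set (Xl2.511.2.S1_a_at) gave 5.75, 6.05, 2.73, 3.19 and 2.74 in the combination. Just 2 of 5 combination caps were thus above background there, and the group was not called against GR (adjusted p = 0.0936, or 0.0466 and 0.0468 without combination replicate 3 or 5).

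The copy crx.S (Xl2.42160.1.S2_at) kept the Zic1GR rise with a smaller one for Pax3GR. Zic1GR caps lay at 13.95, 13.67, 13.49, 13.86 and 13.78, and GR caps at 3.47, 3.35, 3.82, 2.82 and 2.63. Pax3GR caps lay at 5.60, 4.43, 6.29, 7.05 and 6.47, and combination caps at 6.46, 5.50, 6.80, 3.91 and 7.45. Pax3GR and the combination thus overlapped, and each was far below Zic1GR. The rise was at least 861-fold with Zic1GR (adjusted p = 6.03e-11), at least 3.91-fold with Pax3GR (adjusted p = 0.000393) and at least 4.06-fold with the combination (adjusted p = 0.000452). The combination was 212-fold below Zic1GR (adjusted p = 9.22e-09), and its difference from Pax3GR was 0.06 (SE 0.54, adjusted p = 0.971).

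Of the 7 members below the filter, 4 never reached log2 4. They were both rax.L probe sets and 2 of the 3 rax.S ones, and the highest of their values was 2.79. The gene rax encodes a homeodomain protein on which the vertebrate eye field depends. The other rax.S probe set (Xl2.48562.1.A1_at) lay at 6.69 in Zic1GR replicate 4 and between 2.05 and 2.61 on the other 19 arrays. The LIM-homeobox gene lhx2, needed for the optic vesicle in mouse, was read by lhx2.L (Xl2.21558.1.S1_at), which lay at 6.82, 2.87, 2.58, 6.61 and 2.37 in Zic1GR. Its highest value elsewhere was 3.72, in Pax3GR replicate 4. The dim crx.S probe set (Xl2.42160.1.S1_at) lay at 4.06, 3.14, 2.27, 5.55 and 4.83 in Zic1GR and at most at 2.20 elsewhere. Zic1GR replicates 1 and 4 were thus the caps in which lhx2.L was above background, and replicate 4 the only one with any rax signal.

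**Figure D2:**
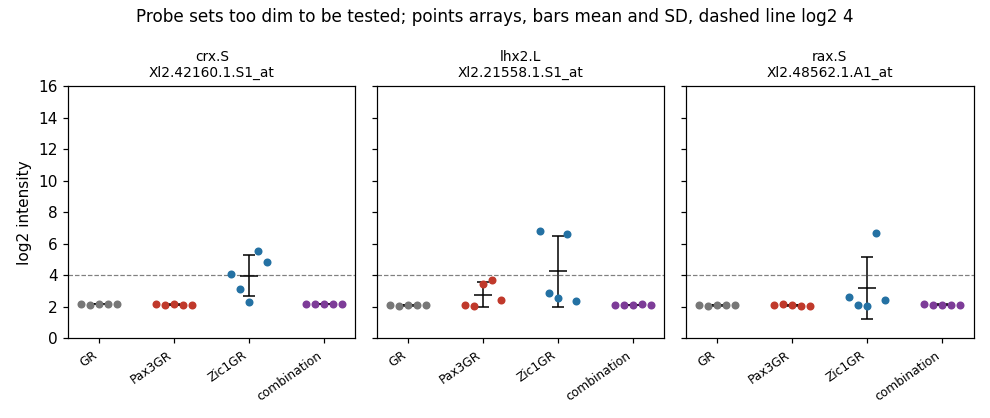
Log2 intensity of the 3 members that reached log2 4 on fewer than 5 arrays, by group, with points for arrays, bars for mean ± SD (n = 5) and a dashed line at log2 4. Each is above the line on Zic1GR arrays alone, on 3, 2 and 1 of 5.

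Read together, 10 of the 11 tested probe sets rose with Pax3GR and 0 fell, where 27.3% of all probe sets tested rose and 23.0% fell, and otx2.L was not called. The filter kept members that were high in some group, so these counts describe the 11 and not all 18. The Pax3GR count includes both six6 copies and both six3.S probe sets, which passed the filter only through Pax3GR and so give no test. With Zic1GR 9 rose and 0 fell, where 28.6% of all rose and 22.8% fell, and both six6 copies were not called. In the combination 3 rose against GR (otx1.L, crx.S and 1 crx.L probe set), where 24.6% of all rose, and otx2.L fell, where 20.3% of all fell. The median difference of the 11 from GR was 6.16, 4.09 and 0.45 in the 3 groups in that order, and that of all probe sets tested was 0.10, 0.09 and 0.08. With values under log2 4 set to 4 the members' medians were 5.12, 3.51 and 0.44. The comparisons share the 5 GR arrays.

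**Figure D3:**
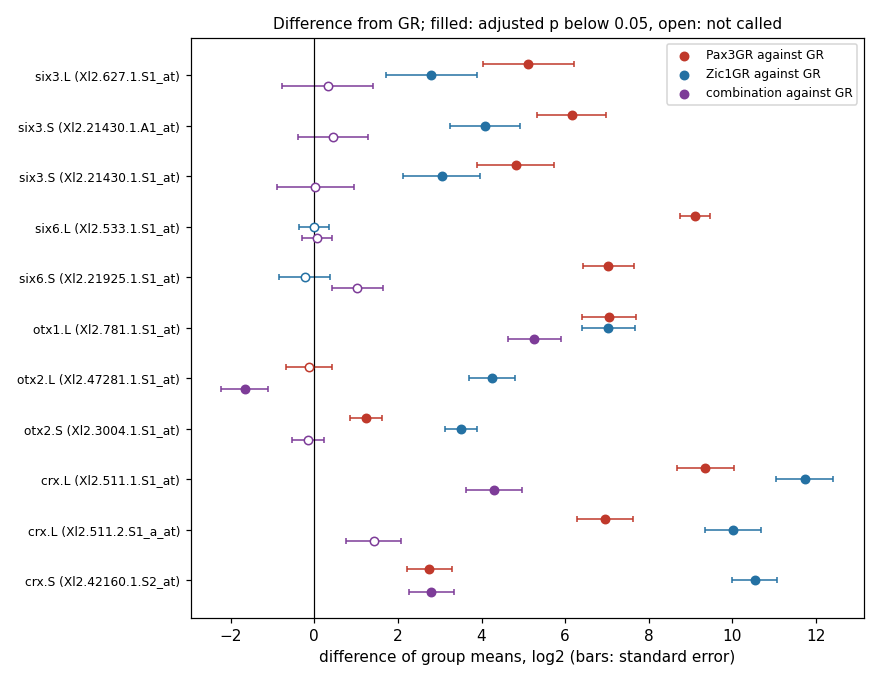
Difference of the Pax3GR, Zic1GR and combination means from the GR mean on the log2 scale (x axis) for the 11 tested probe sets (y axis). Bars give the standard error, and filled points mark adjusted p below 0.05. For six3, six6 and crx.L the combination lies nearer to 0 than Pax3GR, and otx1.L keeps 5.26 of its rise.

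Setting the combination against each single factor, 8 of the 11 were lower than in Pax3GR, where 5.98% of all probe sets tested were lower, and 0 were higher, where 4.28% of all were. Against Zic1GR 7 of the 11 were lower, where 6.25% of all were lower, and 0 were higher, where 7.05% of all were. Both six3.S calls among those 7 were lost with values under log2 4 set to 4. The median difference was -4.81 against Pax3GR and -3.64 against Zic1GR, beside 0.01 and -0.02 over all probe sets tested, and -4.03 and -2.22 with values under log2 4 set to 4. Zic1 message added to Pax3 thus went with loss of six6.L and six3.S to below background, and Pax3 message added to Zic1 went with loss of the otx2.L rise. The exceptions were otx1.L, not called in either comparison, otx2.L and crx.S, not called against Pax3GR, and six3.L and both six6 copies, not called against Zic1GR. Pax3GR and Zic1GR themselves differed for 7 of the 11, where 34.3% of all differed. This count and that of the 8 lower than in Pax3GR include both six6 copies, which passed the filter only through Pax3GR. The 8 also include both six3.S probe sets, which likewise passed only through Pax3GR. Both six6 copies were higher in Pax3GR, as were 17.3% of all, and both otx2 copies and the 3 tested crx probe sets were higher in Zic1GR, as were 17.0% of all.

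**Figure D4:**
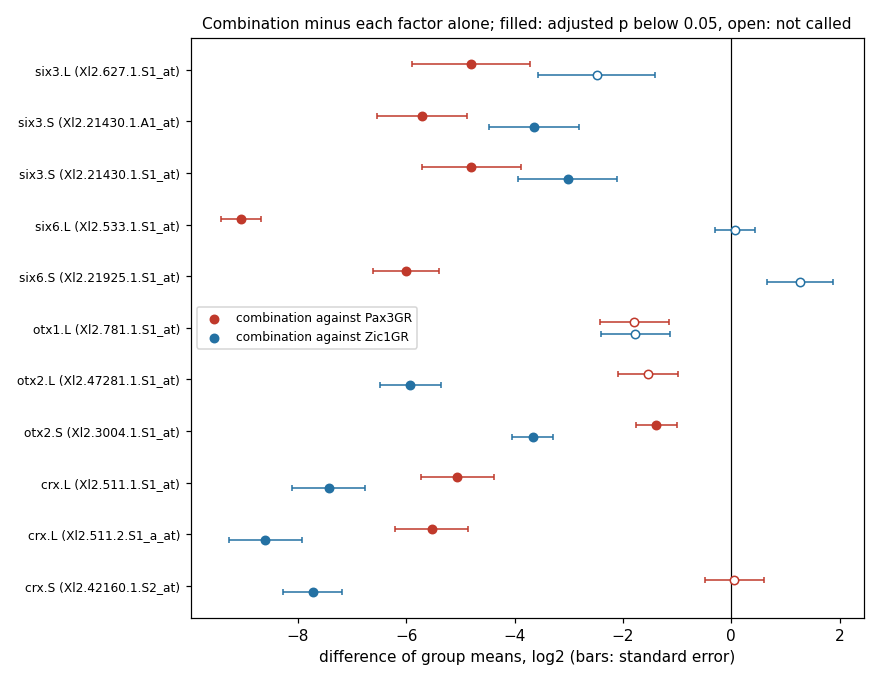
Mean of the combination minus the mean of Pax3GR or of Zic1GR on the log2 scale (x axis) for the 11 tested probe sets (y axis), with bars for the standard error and filled points for adjusted p below 0.05. Against Pax3GR every point lies below 0 other than crx.S at 0.06, and against Zic1GR every point other than the six6 copies, with values below log2 4 plotted as measured.

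Non-additivity is the log2 effect of both factors less the added effects of each one. It was called below 0 for all 11 (adjusted p from 6.82e-10 to 0.00123). Of all probe sets tested, 36.6% were called, 19.6% below 0 and 17.0% above it. For 7 of the 11 the level given by the sum lay within the measured scale, between 9.05 and 14.67. For otx1.L, crx.L and crx.S the sum was 16.5 to 23.2, above 15.33, the highest group mean on the arrays, so part of their shortfall was fixed by the range. At the lower end six3.L, six3.S, six6.L and six6.S rest partly on values below log2 4. With those set to 4 the term was -7.35 for six3.L, -6.23 and -3.95 for six3.S, -6.78 for six6.L and -4.84 for six6.S. Among the 7, otx2.L was measured at 8.39 where the sum gave 14.19. Both six6 copies and both six3.S probe sets, counted among the 11, passed the filter only through Pax3GR, so their terms are no test. The copy six6.L was measured at 1.74 where the sum gave 10.77.

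Caps of one injection differed, and several members were low in the same caps. In Pax3GR, replicates 1 and 2 were the lowest caps for every tested probe set other than those of otx2. The same 2 caps had the highest means of the epidermal markers, 11.08 and 10.22 against 8.74 to 8.96 in the other 3. Their multiciliated cell markers averaged 9.85 and 6.89 against 4.19 to 4.41, and pan-neural markers 9.67 and 10.52 against 10.29 to 10.54. The part of these cell types in the spread was not tested. In Zic1GR, replicates 1 and 4 were the highest caps for six3.L, both six3.S probe sets and lhx2.L, with pan-neural means of 10.33 and 10.14 against 9.60 to 9.66. In the same group otx2.L and crx.L (Xl2.511.1.S1_at) varied little, each with an SD of 0.14. Their means there were 14.31 and 13.85, where the highest group mean on the arrays was 15.33. In the combination, replicates 1 and 2 were the highest caps for crx.L and six6.S, with pan-neural means of 8.95 and 9.56 against 7.68 to 8.76. Replicates 2 and 4 were the lowest for both otx2 copies. Leaving out the least alike array of each group together (Pax3GR 1, Zic1GR 5, combination 4 and GR 3) gave 10, 9 and 3 member calls against GR, where the full fit gave 10, 9 and 4.

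Over the 20 arrays, copies of a gene tracked each other to different degrees. The Pearson correlation was 0.95 between six6.L and six6.S, 0.93 between otx2.L and otx2.S, 0.81 between six3.L and the brighter six3.S probe set and 0.79 between crx.L and the tested crx.S probe set. These describe 20 arrays in 4 groups that share the injections. Of 8387 other named gene copies, those most like six6.L were tmem150b.L, c1orf216.S and vegfc.S (r = 0.997, 0.992 and 0.992), the last a growth factor of lymphatic vessels. Those most like six6.S were nkx6-2.L, a homeobox gene of the ventral neural tube, ndnf.L and nes.S, which encodes the neural progenitor filament nestin (r = 0.987, 0.98 and 0.976). The closest to otx1.L was irx1.L, an Iroquois homeobox gene (r = 0.97), then lrig3.S and the Wnt receptor gene fzd7.L (r = 0.96 and 0.95). For crx.S the closest were akr1d1.L, the anterior placode and cement gland gene pitx1.L and smyd1.L (r = 0.95, 0.94 and 0.93), and for crx.L fgf8.L, mylip.L and ptn.L (r = 0.93 each). The gene otx2.L was most like tdgf1.3.L, a Nodal co-receptor gene (r = 0.91), aldh18a1.L and pmp22.L (r = 0.91 and 0.89). For otx2.S these were eya1.L, akr1d1.L and the proneural gene neurog2.S (r = 0.90, 0.88 and 0.87). The copy six3.L was most like ldb1.L, a cofactor of LIM-homeodomain proteins, LOC100127312 and the neural progenitor gene sox2.L (r = 0.92, 0.89 and 0.89). The closest to six3.S were glrx3.L, not.L and asb1.L (r = 0.95, 0.88 and 0.87). The correlation does not give the size of a change. Group means lay between 13.63 and 14.03 for ldb1.L and between 12.32 and 12.52 for glrx3.L, while not.L had 2.80 in GR and 7.95 in Pax3GR.

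The other genes of the pathway were taken from a list of eye field and retina genes and a list of forebrain regulators. Of 28 gene copies on the eye field and retina list 13 were tested, and 6 rose and 4 fell with Pax3GR, 6 rose and 3 fell with Zic1GR, and 2 rose and 5 fell with the combination. As shares these were 46.2% and 30.8%, 46.2% and 23.1%, and 15.4% and 38.5%, beside 27.3% and 23.0%, 28.6% and 22.8%, and 24.6% and 20.3% of all probe sets tested, so the share that fell with Zic1GR was near the background. Those that rose with Pax3GR include foxd1.L, mab21l1.L and mitf.L, which passed the filter only through Pax3GR and so give no test. Among those that fell in each group, tbx3.L would not have passed without the GR arrays. Both tbx3 copies and tbx2.L fell with Pax3GR, tbx3.S from 12.01 ± 0.19 down to 2.61 ± 0.24 (a bound of 257-fold, adjusted p = 2.06e-11). The T-box gene tbx3 is expressed in the frog eye field and elsewhere in the ectoderm. With Zic1GR tbx3.S fell by 2.76 (adjusted p = 9.7e-05), foxn4.S, a retinal progenitor factor in mouse, by 5.06 (adjusted p = 0.000447), and the cyclin gene ccnd1.L rose by 0.87 (adjusted p = 0.000265). In the combination tbx2.S fell by 5.927 (adjusted p = 1.28e-06), tbx2.L by at least 40.8-fold (adjusted p = 4.96e-12) and tbx3.S by a bound of 257-fold (adjusted p = 2.86e-11). Not called were ccnd1.S with Pax3GR (11.71 ± 0.42 against 11.56 ± 0.18), tbx2.S with Zic1GR (adjusted p = 0.0942) and ccnd1.L with the combination (adjusted p = 0.175). The list's median difference from GR was 0.65, 0.01 and -0.45 in those 3 groups, or 0.65, 0.17 and -0.03 with values under log2 4 set to 4.

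Named after their values were seen, pax6.L and sox2.L stand closest to the members by role. The eye regulator pax6.L (Xl2.647.7.S1_at) had means of 5.95 ± 1.17 with GR, 6.92 ± 2.09 with Pax3GR, 9.69 ± 0.97 with Zic1GR and 3.45 ± 1.90 with both. It rose with Zic1GR (adjusted p = 0.004) and was lower in the combination than in GR (adjusted p = 0.0436) and Zic1GR (adjusted p = 0.000192). As 4 of 5 combination arrays lay below log2 4, the sizes are bounds of at least 2.62-fold and at least 35-fold with those set to 4. The gene sox2.L lay at 7.53, 12.96, 11.66 and 9.62 in the same order of groups, higher than GR in all 3 (adjusted p = 3.81e-05, 0.000596 and 0.0494). Also chosen after their values were seen, mab21l2.S, an eye development gene, barhl2.S and nkx2-1.L, a hypothalamus regulator, did not pass the filter. In Pax3GR replicates 1 to 5 mab21l2.S lay at 3.56, 2.19, 7.15, 9.64 and 8.23, barhl2.S at 1.69, 2.70, 6.88, 7.85 and 6.05, and nkx2-1.L at 2.41, 1.98, 4.23, 7.88 and 7.35. In the other 3 groups none of them passed 2.11, so all 3 were above background in the same 3 Pax3GR caps, where six6 and crx.L were also highest.

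Of 27 forebrain gene copies 16 were tested, and 8 rose and 1 fell with Pax3GR, 12 rose and 0 fell with Zic1GR, and 8 rose and 1 fell with the combination. The shares that rose were 50%, 75.0% and 50%, beside 27.3%, 28.6% and 24.6% of all. Those that fell were 6.25%, 0.0% and 6.25%, beside 23.0%, 22.8% and 20.3% of all. Of the 12 that rose with Zic1GR, hesx1.L, hesx1.S and fezf2.L reached log2 4 only on the 5 Zic1GR arrays, so the filter required these 3 to differ. Also among the 12, wnt8b.S reached it on 5 arrays, most of them Zic1GR, and passed the filter only through Zic1GR. The copy foxd2.S, which rose with the combination, would not have passed without that group. Medians were 0.92, 2.78 and 1.11, or 0.79, 1.75 and 0.72 with values under log2 4 set to 4. The anterior neural and pituitary gene hesx1.L was on in Zic1GR at 9.77 ± 1.20 and at most at 1.95 on the other arrays, at least 54.6-fold, a description with no test. The zic genes did not share the loss in the combination. There zic2.L rose by 8.39, zic2.S by 4.40 and zic5.S to 11.94 ± 0.24, at least 246-fold (adjusted p = 3.89e-12, 2.75e-11 and 4.85e-10). In Pax3GR the same 3 rose by 8.39, 4.15 and at least 94-fold, and in Zic1GR zic2.L rose by 6.88 and zic2.S by 3.43. The calls missed dlx5.L with Pax3GR (adjusted p = 0.858) and the combination (adjusted p = 0.0802), and isl1.S with Zic1GR (13.89 ± 0.19 against 13.57 ± 0.25).

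Against the single factors, 0 of the 13 eye field and retina copies were higher in the combination and 6 were lower, for Pax3GR and for Zic1GR alike. That is 46.2% lower, beside 5.98% and 6.25% of all probe sets tested, and 4.28% and 7.05% of all were higher. Those lower than in Pax3GR were pax6.L, sox2.L, tbx2.S, foxd1.L, mab21l1.L and mitf.L. The last of these, mitf.L, and also foxd1.L and mab21l1.L passed the filter only through Pax3GR and so give no test. Those lower than in Zic1GR were pax6.L, ccnd1.L and both copies of tbx2 and of tbx3. The tbx2 and tbx3 copies also fell with Pax3GR alone. Of the 16 forebrain copies 0 were higher and 1 lower than in Pax3GR, and 3 were higher and 6 lower than in Zic1GR. That is 6.25% lower than in Pax3GR, near the background, and 18.8% higher and 37.5% lower than in Zic1GR. Among those lower than in Zic1GR were hesx1.L, hesx1.S and fezf2.L. They reached log2 4 only on the 5 Zic1GR arrays and so give no test. The lists were not tested against each other. The last list, of midbrain and hindbrain regulators, had 12 tested copies, of which 8 rose and 2 fell with Pax3GR, 5 rose and 5 fell with Zic1GR, and 9 rose and 2 fell with the combination. The shares that rose were 66.7%, 41.7% and 75.0%, beside 27.3%, 28.6% and 24.6% of all probe sets tested. Among those that rose with the combination, hoxb2.S would not have passed the filter without that group. Those that fell were 16.7%, 41.7% and 16.7%, beside 23.0%, 22.8% and 20.3% of all. The hindbrain gene hoxa2.S lay at 9.43, 5.85, 2.62 and 7.26 in GR, Pax3GR, Zic1GR and the combination, and the caudal gene cdx4.L at 2.07, 9.73, 1.99 and 10.25. With Pax3GR cdx4.L rose at least 52.9-fold, irx3.L rose at least 39.4-fold and irx1.L rose by 6.51 (adjusted p = 2.19e-09, 2.47e-09 and 3.15e-09). With Zic1GR irx1.L rose by 7.05, irx2.L rose by 3.45 and hoxa2.S fell by at least 43.2-fold (adjusted p = 1.55e-09, 2.88e-08 and 1.63e-08). With the combination cdx4.L rose by at least 76-fold, irx1.L by 5.76 and irx2.L by 2.995 (adjusted p = 1.08e-09, 1.96e-08 and 1.54e-07). Not called were cdx2.L with Pax3GR (adjusted p = 0.481), cdx4.L with Zic1GR, below background there and in GR, and meis3.S with the combination (adjusted p = 0.174).

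**Figure D5:**
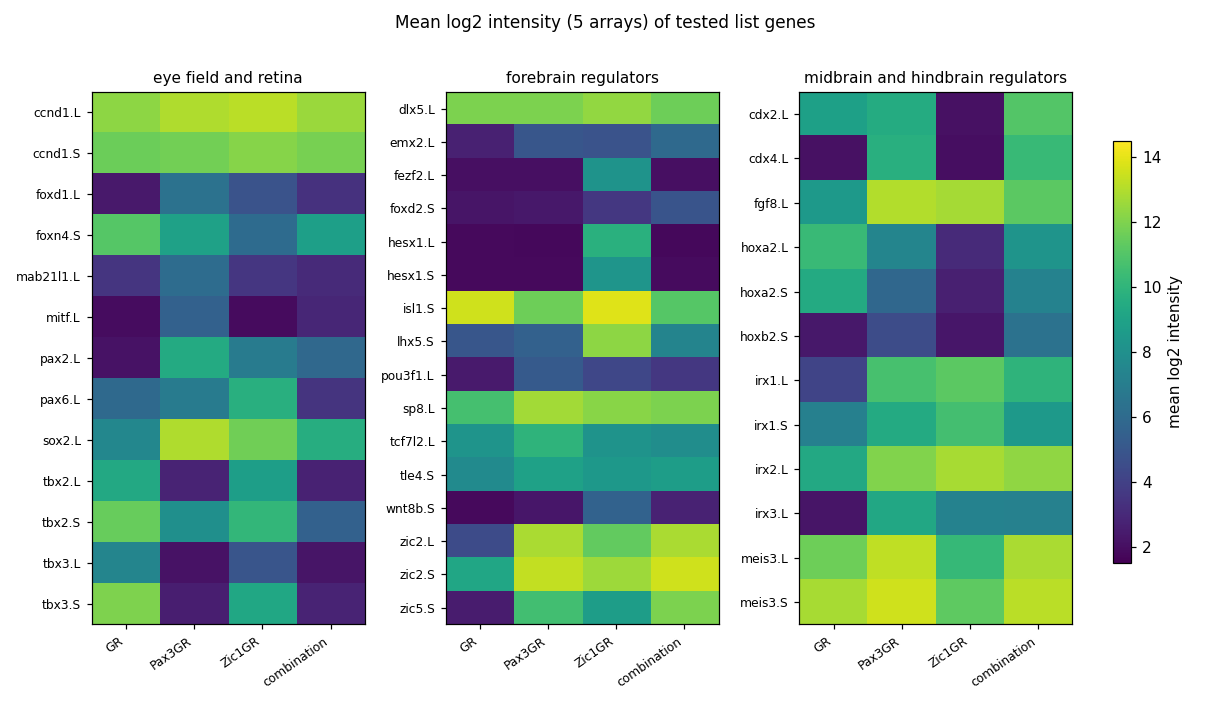
Mean log2 intensity over 5 arrays (colour scale) of the tested genes of 3 lists, eye field and retina (13 copies), forebrain (16) and midbrain and hindbrain (12), with groups on the x axis and gene copies on the y axis. Both hesx1 copies and fezf2.L are bright in Zic1GR alone, and cdx4.L is bright in Pax3GR and the combination.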

How the data were processed

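The 20 arrays were 1-colour Affymetrix Xenopus laevis arrays, each hybridised with RNA from 1 animal cap. The deposited values are log2 intensities per probe set, made by the authors with GCRMA in Partek per the submitters' processing notes, with versions not given in the sources used here. They were used as deposited. GCRMA models background and normalizes between arrays, so low values are compressed towards a floor near log2 2. Signal sets the precision of an array value, and the 5 caps of a group limit it further.

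Control probe sets (96) were left out of 32635. Symbols came from the platform annotation, which gave 15495 probe sets 1 symbol, 279 several and 16765 none. Genes were named from probe sets with 1 symbol. Probe sets at log2 4 or more on at least 5 of 20 arrays (20519) were fitted with limma 3.58.1 (lmFit and eBayes, R 4.3.3) on all 4 groups, and 7 comparisons were each adjusted by Benjamini-Hochberg at 0.05. The script was tested on simulated data. The members and gene lists were chosen with earlier results of these data known. Besides all members, the rule named up to 3 called genes with the smallest adjusted p and the 1 brightest not called, per list and comparison with GR, and for each tested gene copy the 3 genes most like it by Pearson r. Alternatives changed the filter, floor, normalization, variance model, weights, block or arrays. Same-numbered arrays deviated together (r above 0.1) in 8 of 30 pairs, so numbers were not taken as pairs.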

Additional observations from a re-analysis of the deposited data

Results flagged for a closer look

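In 3 of 35 sets of 5 arrays checked, 1 array stood apart from the other 4 by Dixon's test. The test used values under log2 4 set to 4, while the values below are as measured. For six6.S and rax.S the other arrays then lay at or near 4, so any array above it stands apart. The usual rate by chance of about 1 in 20 thus does not apply to them. In GR, replicate 3 had six3.L at 9.23 where the others lay at 5.55 to 6.55. In the combination, replicate 2 had six6.S at 6.19 where the others lay at 2.06 to 4.01. In Zic1GR, replicate 4 had a rax.S probe set at 6.69 where the others lay at 2.06 to 2.61.

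The non-additivity term of limma was called for all 11 tested members. Sizes rest partly on values below log2 4 for six3, six6, otx1.L and crx. Both six6 copies and both six3.S probe sets passed the filter only through Pax3GR. On the log2 scale as measured it was -7.607 for six3.L, -9.795 and -7.844 for six3.S, -9.038 for six6.L and -5.764 for six6.S. It was -8.822 for otx1.L, -5.799 for otx2.L and -4.893 for otx2.S. For crx.L it was -16.788 and -15.546, and for crx.S -10.476. For otx1.L, crx.L and crx.S the added single effects gave a level above 15.33, the highest group mean on the arrays. Part of their shortfall was thus fixed by the range. With values under log2 4 set to 4 the median of the 11 was -6.78, and all 11 were below 0, from -3.95 to -14.91.

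Probe sets outside the test also gave signal above every GR array. In Zic1GR the dim crx.S probe set reached 5.55, lhx2.L 6.82 and rax.S 6.69.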

How the results depend on the processing

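Of 71 member differences followed through 9 alternatives and 20 fits that each left out 1 array, 54 kept their side of the threshold throughout, 8 called ones lost the call somewhere, 9 gained one and 0 reversed. Over all probe sets, the combination against Pax3GR gave 2106 calls, 4914 with array weights, 787 with the groups compared alone, 4396 without the least alike array of each group, and 1328 to 3114 when leaving out 1 array, the lowest without Pax3GR replicate 4, with 1353 without Pax3GR replicate 5 and 1378 without combination replicate 3. Pax3GR against Zic1GR gave 7037 calls and 10913 with array weights. The cause was not tested. Array weights also gave calls to six6.S in the combination against GR and Zic1GR (adjusted p = 0.0199 and 0.0475), crx.L against GR (0.0114), otx2.L against Pax3GR (0.0381) and both six3.S probe sets between Pax3GR and Zic1GR (0.0252 and 0.0396). With the replicate number as a block, member calls were 10, 8, 4, 8, 7, 7 and 11 in the 7 comparisons, where the fit without it gave 10, 9, 4, 8, 7, 7 and 11, and the call it took was six3.L with Zic1GR (adjusted p = 0.0591). Same-numbered arrays correlated between -0.382 and 0.466. Members that lay below log2 4 were limited by signal over background, and no alternative gives them a level.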

Other observations

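The spread of the members between caps was uneven between groups. In the combination, otx2.L had an SD of 1.60, larger than 98.3% of the 17517 probe sets that reached log2 4 on all 5 arrays of that group, and crx.L an SD of 1.93, larger than 99.3%. In Zic1GR the same probe sets had SDs of 0.14, larger than 18.4% of 17678 probe sets each. In GR six3.L had an SD of 1.45, larger than 99.3% of 18047 probe sets.

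Chosen after their values were seen, fezf2.L, a forebrain regulator, and hesx1.S lay between 5.97 and 9.61 and between 5.72 and 10.49 in Zic1GR. Neither reached log2 4 on any other array. In Zic1GR both were highest in replicates 1 and 4, the caps with the highest six3.S and lhx2.L.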
